A study of Rattus norvegicus with 6 samples.

Results

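The cluster that runs from miR-17 to miR-92a (the miR-17 cluster) and the miR-106b-25 cluster are neighbouring miRNA hairpins cut from shared precursor transcripts. In the rat testis table they were represented by 18 of 721 entries, chosen by name with earlier results of these data known. These were both arms, where listed, of miR-17, miR-18a, miR-19a, miR-19b, miR-20a, miR-92a, miR-25, miR-93 and miR-106b. Small RNA was sequenced in 6 testis libraries of Sprague-Dawley rats, 3 with STZ-induced diabetes and 3 normal, at week 8 after the injection. The sources do not say whether a library is 1 rat. Per the study's methods, the diabetic rats were fed a high-fat diet and then injected with streptozotocin (STZ), which kills insulin-producing beta cells, were kept as diabetic only if blood glucose stayed high, and were compared with rats given citrate buffer. Whether the controls ate the same diet is not stated, so diet and diabetes cannot be told apart. Ages were not given, and no transgene or deletion was involved. Values are CPM, counts per 1000000 reads over all listed miRNAs of a library.

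Clustered hairpins are transcribed as a single primary RNA, cut out by Drosha and Dicer, and loaded into Argonaute as mature strands of which usually only the 5p or the 3p arm persists. The seed, bases 2 to 8 of the mature strand, sets which mRNAs are bound, so members with the same seed share most targets. The miR-17 cluster is driven by Myc and E2F factors, promotes proliferation and survival by repressing Bim and p21 (Cdkn1a), and is best known as an oncogene of lymphoma. In the testis both clusters are known from spermatogonia, the dividing germ cells that feed spermatogenesis. In whole tissue, fewer cells of a type and less RNA per cell cannot be told apart.

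In RefSeq (assembly GRCr8) the miR-17 cluster genes lie on chromosome 15, plus strand, in the order Mir17, Mir18a, Mir19a, Mir20a, Mir19b1 and Mir92a1, within 785 bases. The miR-106b-25 genes lie on chromosome 12, minus strand, in the order Mir106b, Mir93 and Mir25, within 494 bases, and all 3 are inside Mcm7, a gene for a DNA replication helicase subunit on the same strand. A related X-linked cluster, miR-106a-363, spans 871 bases and holds Mir106a (also called rno-mir-17-2), Mir20b, Mir19b2, Mir92a2 and Mir363. The mature miR-17-5p, miR-19b-3p and miR-92a-3p are made in identical form by chromosome 15 and by the X chromosome, so reads of these 3 cannot be assigned to a cluster. Leaving out Mir20b and Mir363, RefSeq gives 21 mature products for the other 12 hairpins, and 18 of these were listed in the table.

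Of the 18 members, 8 fall into 3 shared-seed groups and each other member has a seed that no other member has. Dominant strands are shown with the seed in capitals because these seeds order the results (RNA, 5′ to 3′, RefSeq GRCr8). The first group shares the seed AAAGUGC.
miR-17-5p: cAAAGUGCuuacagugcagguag
miR-20a-5p: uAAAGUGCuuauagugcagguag
miR-93-5p: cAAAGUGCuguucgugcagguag
miR-106b-5p: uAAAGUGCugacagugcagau
The miR-19 pair shares another seed, GUGCAAA.
miR-19a-3p: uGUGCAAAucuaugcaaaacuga
miR-19b-3p: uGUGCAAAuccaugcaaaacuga
miR-25-3p and miR-92a-3p carry AUUGCAC.
miR-25-3p: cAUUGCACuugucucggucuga
miR-92a-3p: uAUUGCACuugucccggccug
The cluster's odd member out and the unusually abundant second arm of miR-106b each have a seed of their own.
miR-18a-5p: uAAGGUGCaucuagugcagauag
miR-106b-3p: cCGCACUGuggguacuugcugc

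All 18 members matched a RefSeq mature sequence. Counting positions from the 5′ end of the first named strand, miR-17-5p and miR-20a-5p differ by C1U and C12U, and miR-19a-3p and miR-19b-3p by U11C alone. miR-25-3p and miR-92a-3p differ over 21 aligned bases by C1U, U14C and U18C. How the authors shared reads that fit several such miRNAs is not given in the sources used here, so values of these close relatives are uncertain where a read covers no differing base.

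The libraries held 305476 to 549446 reads over the listed miRNAs, and all 6 had reads of testis germ-cell miRNAs. All 16 germ-cell markers checked were listed, with sums of 402582 to 417152 CPM under diabetes against 385209 to 434294 CPM in normal testes, and miR-34c-5p was the leading member. Summed red blood cell markers (4 of 4 listed), whose cells also hold miR-25 and miR-92a, were at 544 to 782 CPM under diabetes against 678 to 741 CPM, and the leukocyte markers (5 of 5 listed) at 543 to 691 and 630 to 792 CPM. Groups overlapped for those lists, and no defining marker was at 0 in every library. In the limma comparison below, 1 of 16 germ-cell markers was higher in diabetes at an unadjusted p under 0.05 and 0 were lower. Of 5 leukocyte markers, 1 was lower and 0 were higher. Groups also overlapped for the lists of smooth muscle and peritubular cells, of skeletal muscle and of neurons. They did not overlap for the 3 remaining lists. The liver marker (1 of 2 listed) was lower in diabetes, at 936 to 1372 against 1839 to 2786 CPM. The Sertoli pair (2 of 2 listed) was at 4102 to 4467 against 3262 to 3693 CPM, and the endothelial pair (2 of 2 listed) at 11722 to 13783 against 8662 to 11086 CPM. At the same limma threshold 1 of 2 Sertoli and 1 of 2 endothelial markers were higher in diabetes, and the 1 liver marker was lower. In the lists of red blood cells, smooth muscle and peritubular cells, skeletal muscle and neurons 0 markers passed it. The part of these lists in the values of the members was not tested.

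Members together took 1.80% ± 0.105 of reads (SD) in the 3 diabetic libraries and 1.99% ± 0.149 in the 3 normal ones. They differed widely in level. A minimum of 10 reads per library was met by 11 of the 18, and the 7 others were the minor arms miR-17-2-3p, miR-17-1-3p, miR-93-3p, miR-20a-3p, miR-18a-3p, miR-25-5p and miR-19a-5p. Every read stands for a single mature strand of 20 to 23 bases, so CPM needs no length term between members, although adaptor ligation differs between sequences and levels of different miRNAs are approximate.

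miR-20a-5p led in all 6 libraries, at 7356 ± 922 CPM (SD, n = 6), and ranked 25 among the 721 entries. miR-25-3p followed at 4832 ± 153 CPM, then miR-17-5p at 2286 ± 277 and miR-93-5p at 1937 ± 162 CPM. The first and second places did not overlap with their neighbours in any library, whereas miR-17-5p and miR-93-5p overlapped, with miR-17-5p higher in 5 of 6 libraries. miR-19b-3p came next at 1158 ± 163 CPM. Then came the arms of miR-106b, miR-106b-3p at 445 ± 48.0 and miR-106b-5p at 416 ± 55.8 CPM, which overlapped and were each the higher in 3 and in 2 libraries, with a tie in diabetic replicate 2. The lowest of the 11 were miR-92a-3p (174 ± 34.3 CPM), miR-18a-5p (126 ± 22.3), miR-19a-3p (119 ± 25.3) and miR-92a-1-5p (37.7 ± 11.8). miR-92a-3p, miR-18a-5p and miR-19a-3p overlapped with each other, and the last place did not overlap with the place above it.

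**Figure D1:**
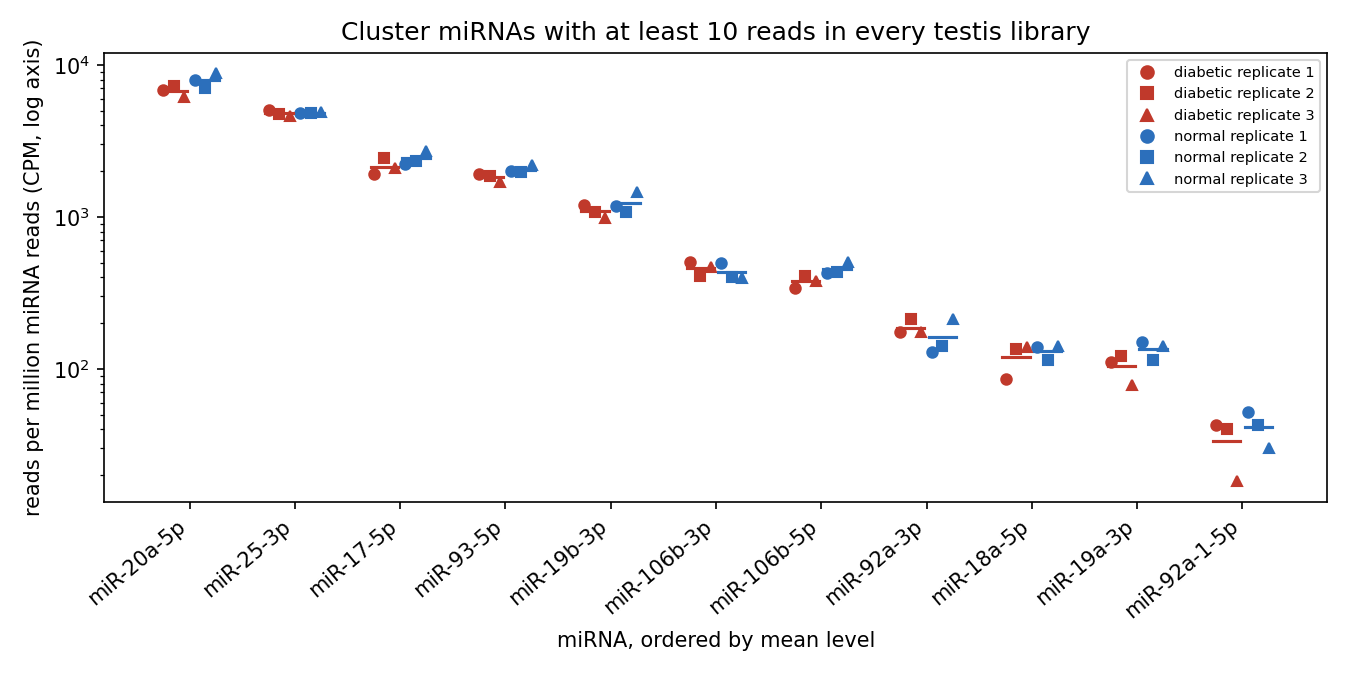
Level of the 11 members with at least 10 reads in every library, in CPM on a log axis, ordered by mean. Each point is a library (red diabetic, blue normal, shape by replicate) and each bar a group mean; the levels run from about 7356 CPM for miR-20a-5p to 37.7 CPM for miR-92a-1-5p, and the groups overlap except for miR-93-5p and miR-106b-5p.

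Several members of the same primary transcript differed in level by far more than replicates did. miR-20a-5p was between 2.94 and 3.59 times as abundant as miR-17-5p across the 6 libraries, although miR-17-5p also has an X-linked gene. Against miR-18a-5p the ratio was 43.7 to 80.6, and against miR-92a-3p, which also has a second gene, 34.4 to 61.7. miR-19b-3p exceeded miR-19a-3p by 7.85 to 12.6 times. Within the Mcm7 cluster miR-25-3p stood above miR-93-5p by 2.24 to 2.74 times, and miR-93-5p above miR-106b-5p by 4.31 to 5.66 times. The miR-25-3p to miR-93-5p ratio averaged 2.65 ± 0.0891 with diabetes and 2.37 ± 0.108 without, and the miR-20a-5p to miR-92a-3p ratio 36.3 ± 2.77 and 51.1 ± 10.1 (SD over 3 libraries each). For both ratios the groups did not overlap. Of 8 ratios computed, 3 had groups that did not overlap. Several of the 8 share a member, and no like share over other pairs of miRNAs was computed. The 3 were singled out after their values were seen, and were not tested.

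Arm use was strongly one-sided in most hairpins. The 5p arm took 98.0% of both arms' reads for miR-18a, 99.95% for miR-20a and 99.8% for miR-93 over all libraries, and the 3p arm nearly all reads for miR-19a and miR-25, whose 5p shares were 0.623% and 0.0463%. miR-92a-1 gave a 5p share of 9.43% to 28.8% by library, a value that also counts the X-linked copy's 3p reads. miR-106b alone had both arms at a like level. Its 5p arm took 40.5% (104 of both arms' reads against 153), 50.0% (152 against 152) and 44.9% (208 against 255) in diabetic replicates 1, 2 and 3, with 95% Wilson intervals of 34.6% to 46.6%, 44.4% to 55.6% and 40.5% to 49.5%. In normal replicates 1, 2 and 3 it took 46.3% (41.5% to 51.2%), 51.8% (47.0% to 56.6%) and 55.9% (51.5% to 60.3%). The group means were 45.1% ± 4.77 and 51.4% ± 4.83 (SD, n = 3 each), and the groups overlapped. These intervals cover counting error only.

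**Figure D2:**
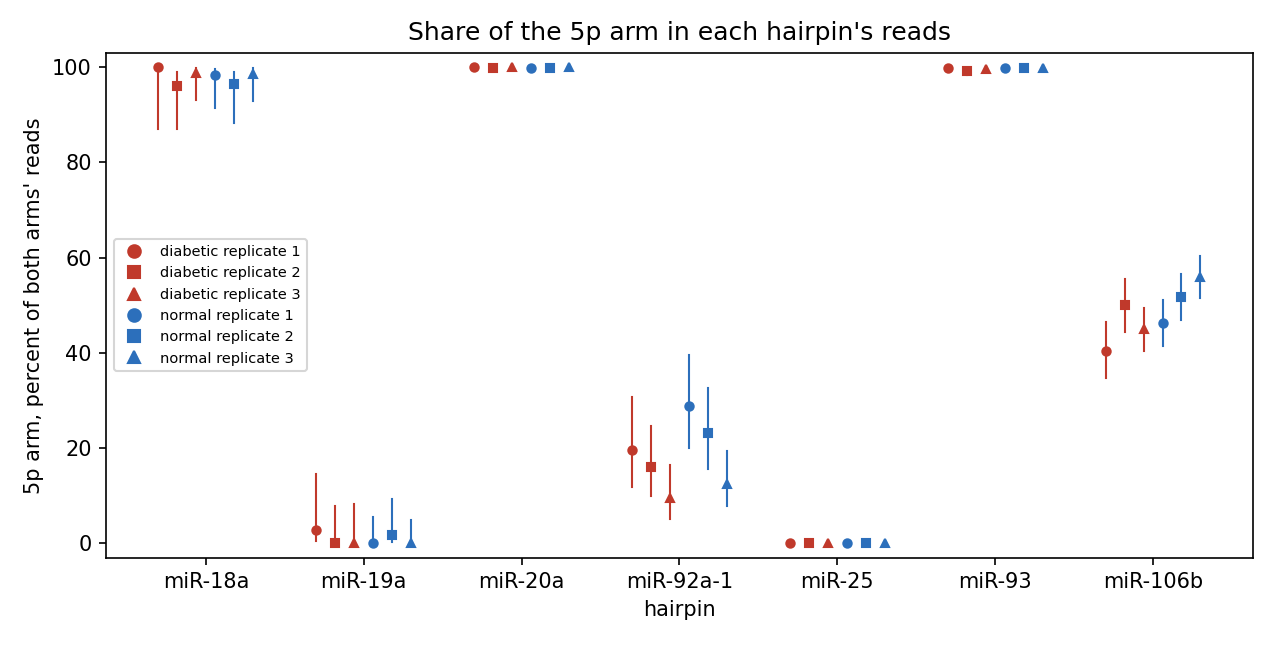
Share of the 5p arm among the reads of both arms for 7 hairpins, in percent, by library (red diabetic, blue normal, shape by replicate); lines are 95% Wilson intervals. miR-18a, miR-20a and miR-93 sit near the top, miR-19a and miR-25 near the bottom, and miR-106b between 40.5% and 55.9%.

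Diabetic and normal testes were then compared by limma on log2(CPM + 1) across 578 miRNAs, of which 17 were members. An adjusted p under 0.05 was reached by 0 members, against 0% of all tested miRNAs (2 by edgeR and 1 by DESeq2 over all miRNAs, with 0 members), and adjusted p-values of members ran from 0.492 to 0.975. An unadjusted p under 0.05 was reached by 1 of the 17 members, 5.88%, against 8.82% of all tested miRNAs (51, of which 32 were higher and 19 lower). The two-sided exact permutation test over libraries, quoted below for single members, cannot give a p under 0.1 with 3 against 3. Groups did not overlap for 2 members, 11.8%, against 14.9% of all tested miRNAs. Each share was near its background. Estimates were below 0 for 13 of the 17 members and above 0 for 4, against 49.5% below 0 over all tested miRNAs. The median was -0.18 for members and 0.0046 over all tested miRNAs. Among those with at least 10 reads in every library 9 of 11 members were below 0, with a median of -0.17, against 42.4% of 257 such miRNAs and a median of 0.04. These estimates are not independent, because members share transcripts and possibly reads.

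**Figure D3:**
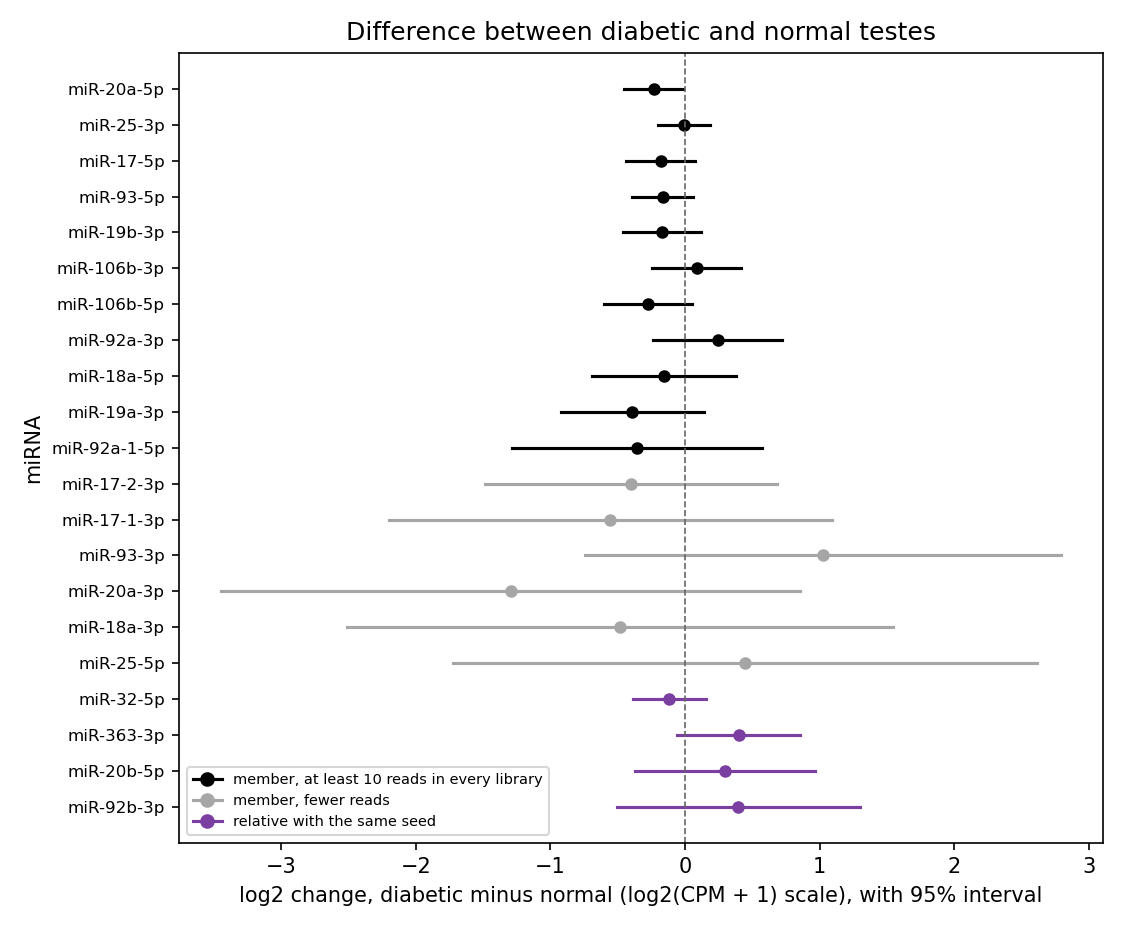
Difference between groups for the 17 tested members and 4 relatives with the same seed, as log2 change (diabetic minus normal) on the log2(CPM + 1) scale with the 95% interval from limma. Black members have 10 or more reads in each library, grey members fewer and wide intervals, and relatives are purple; among members only the interval of miR-20a-5p lies wholly below 0, ending at -0.01, and that miRNA's adjusted p is 0.492.

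In the AAAGUGC group, whose members repress p21 and other brakes of the cell cycle, miR-20a-5p was at 6855, 7306 and 6128 CPM in diabetic replicates 1, 2 and 3 and at 7967, 7095 and 8788 CPM in normal replicates 1, 2 and 3. Diabetic replicate 2 lay above normal replicate 2, so the groups overlapped. The log2 change was -0.23 (SE 0.10), a fold of 0.852 with a 95% interval of 0.732 to 0.991 on the log2(CPM + 1) scale. Its unadjusted p was 0.0396 and its adjusted p 0.492 in limma (exact permutation p = 0.2). The p depended on single libraries and settings: it was 0.0694, 0.174, 0.0893 and 0.167 without diabetic replicate 1, diabetic replicate 3, normal replicate 1 and normal replicate 3, 0.0727 with upper-quartile factors, and 0.236 when the variance was not tied to the mean.

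miR-93-5p, made within Mcm7, was at 1928, 1863 and 1685 CPM in diabetic and 1995, 1971 and 2179 CPM in normal replicates 1, 2 and 3. Every diabetic library was below every normal library, by a narrow margin. Its log2 change was -0.17 (SE 0.11), limma gave it an adjusted p of 0.728, and by exact permutation p was 0.1. Without diabetic replicate 3 the estimate was -0.11. miR-106b-5p, from the same transcript, was at 341, 409 and 379 against 428, 432 and 506 CPM in the same order. This was the other member whose groups did not overlap, with a log2 change of -0.28 (SE 0.15), an adjusted p of 0.669 from limma and a p of 0.1 by exact permutation.

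miR-17-5p was at 1912, 2430 and 2088 CPM in diabetic replicates and 2233, 2343 and 2709 CPM in normal ones. The groups overlapped, since diabetic replicate 2 was above normal replicates 1 and 2. Its log2 change was -0.18 (SE 0.12), limma gave it an adjusted p of 0.728, and by exact permutation p was 0.3. That estimate was -0.10 without diabetic replicate 1 or normal replicate 3, and -0.28 without diabetic replicate 2. The 4 members of this seed group had estimates between -0.28 and -0.17, and 0 of them passed after adjustment. Summed, they stood at 11107 ± 866 CPM (SD) over the 3 diabetic libraries and 12882 ± 1191 over the 3 normal ones, a ratio of 0.862, and miR-20a-5p made up 61.2% of the sum.

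The miR-19 pair, with its own seed, was less abundant. miR-19b-3p was at 1205, 1072 and 983 CPM in diabetic and 1174, 1068 and 1449 CPM in normal replicates 1, 2 and 3. Only normal replicate 3 stood above all diabetic libraries. The log2 change was -0.17 (SE 0.14), limma gave it an adjusted p of 0.787, and by exact permutation p was 0.5. The estimate was -0.048 without normal replicate 3, -0.10 without diabetic replicate 3 and -0.27 without normal replicate 2. miR-19a-3p was at 111, 121 and 78.3 against 150, 114 and 142 CPM, from 34 to 75 reads per library. Here diabetic replicate 3 was the low value, and diabetic replicate 2 lay above normal replicate 2. Its log2 change was -0.39 (SE 0.25, 95% interval -0.92 to 0.14), limma gave it an adjusted p of 0.726, and by exact permutation p was 0.2. Without diabetic replicate 3 the log2 change was -0.21.

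The AUUGCAC pair had estimates near and above 0. miR-25-3p had the lowest coefficient of variation of the 11 members, at 5084, 4771 and 4616 CPM in diabetic and 4819, 4815 and 4888 CPM in normal replicates, with a coefficient of 3.17% over the 6 libraries. The group means were 4823 ± 239 and 4840 ± 40.8 CPM (SD over 3 libraries each). The log2 change was -0.0062 (SE 0.09; limma adjusted p = 0.975), and the 95% interval of -0.20 to 0.19 spans folds of 0.872 to 1.14. miR-92a-3p was at 174, 212 and 175 CPM in diabetic and 129, 142 and 211 CPM in normal replicates. Normal replicate 3 lay above diabetic replicates 1 and 3, so the groups overlapped. The log2 change was 0.24 (SE 0.23), limma gave it an adjusted p of 0.795, and by exact permutation p was 0.3. That estimate was 0.10 without normal replicate 1, 0.15 without diabetic replicate 2 and 0.45 without normal replicate 3.

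miR-18a-5p, whose seed departs from that of miR-17-5p at A4G, was at 85.1, 134 and 140 CPM in diabetic and 138, 114 and 142 CPM in normal replicates 1, 2 and 3. Diabetic replicate 1, with 26 reads, was the only low library. Its log2 change was -0.16 (SE 0.25), limma gave it an adjusted p of 0.841, and by exact permutation p was 0.6. Without that library the estimate was 0.07, and without each other library it lay between -0.10 (normal replicate 3) and -0.29 (diabetic replicate 3). miR-106b-3p, the second arm of miR-106b, was at 501, 409 and 464 CPM in diabetic and 496, 402 and 398 CPM in normal replicates. The groups overlapped, with normal replicate 1 close to the highest diabetic library. Its log2 change was 0.09 (SE 0.16), limma gave it an adjusted p of 0.842, and by exact permutation p was 0.5. Leaving out single libraries moved it between 0.019 (without diabetic replicate 1) and 0.19 (without normal replicate 1), with 0.17, 0.038 and 0.030 without diabetic replicate 2, normal replicate 2 and normal replicate 3. The estimate for the 5p arm of the same hairpin was -0.28, and the difference between the arms was not tested.

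miR-92a-1-5p, the minor arm that marks the chromosome 15 copy of miR-92a, was at 42.6, 40.3 and 18.2 CPM in diabetic and 52.1, 42.6 and 30.2 CPM in normal replicates, on 10 to 23 reads. Replicate 3 was the lowest of each group, and the groups overlapped. Its log2 change was -0.35 (SE 0.44), limma gave it an adjusted p of 0.808, and by exact permutation p was 0.6. The estimate was 0.03 without diabetic replicate 3, -0.18 without normal replicate 1, and -0.56 without diabetic replicate 1 or normal replicate 3. miR-17-2-3p, the X-linked minor arm, had 7, 6 and 11 reads in diabetic and 9, 9 and 25 reads in normal replicates. Normal replicate 3 alone stood apart, and without it the log2 change moved from -0.40 to 0.01. The other 6 minor arms had at most 11 reads in any library, and 4 of them had at most 3. miR-19a-5p had 1 read in diabetic replicate 1, 1 in normal replicate 2 and none elsewhere, so it was not tested. With 0 reads, the depth allows up to 3 reads, which is 5.46 to 9.82 CPM by library.

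Single libraries stood out across members. Of the 11 members with at least 10 reads in every library, 6 were highest in normal replicate 3 and 6 were lowest in diabetic replicate 3. None of these 11 had its highest level in diabetic replicate 3, and none had it in normal replicate 2. The like shares over all miRNAs are not given here. Normal replicate 3 and diabetic replicate 3 were the deepest libraries of their groups, at 530132 and 549446 reads. The summed miR-17 cluster members were at 10391, 11340 and 9621 CPM in diabetic and 11874, 10932 and 13487 CPM in normal replicates 1, 2 and 3. Group means differed by -1647 CPM, against an SD of 861 CPM for diabetic and 1292 CPM for normal libraries, and the groups overlapped. It was -953 CPM without normal replicate 3, which is a move by over 1.5 times, and -1245 CPM without the 3 mature strands that the X-linked cluster also makes. The summed miR-106b-25 cluster members were at 7857, 7467 and 7155 against 7745, 7623 and 7974 CPM. Group means differed by -288 CPM, against an SD of 352 CPM for diabetic and 178 CPM for normal libraries, and the groups overlapped. The ratio of means was 0.963, and miR-25-3p made up 63.2% of the sum. The difference was -119 CPM without diabetic replicate 3, -191 CPM without normal replicate 3 and -470 CPM without diabetic replicate 1.

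**Figure D4:**
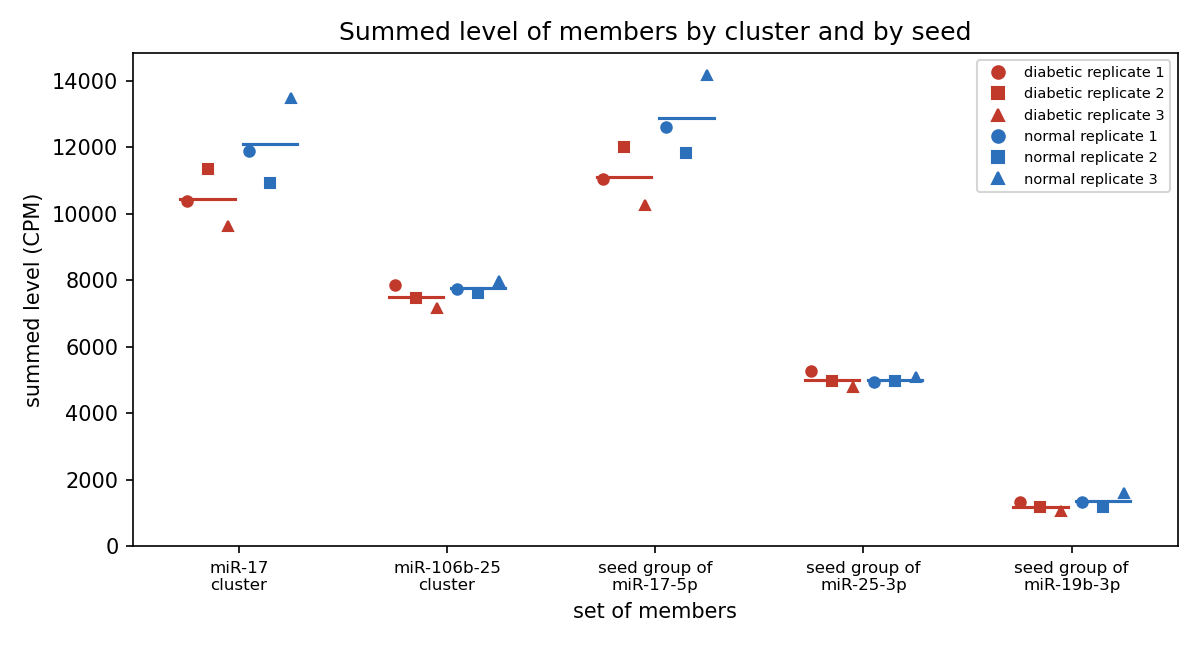
Summed level in CPM of the miR-17 cluster, the miR-106b-25 cluster and 3 seed groups, by library (red diabetic, blue normal, shape by replicate), with bars at group means. In each of the 5 sets the groups overlap; diabetic replicate 3 is the lowest point in all 5, and the seed group of miR-25-3p is level between groups at 5010 and 5001 CPM.

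Relatives outside the 2 clusters gave 9 listed entries, of which 7 were tested and 0 had an unadjusted p under 0.05, against the 8.82% of all tested miRNAs. Groups did not overlap for 2 of the 7, against the background of 14.9%. The 4 with at least 10 reads in every library each share a seed with a member and are shown for that reason.
miR-20b-5p: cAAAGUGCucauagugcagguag
miR-363-3p: aAUUGCACgguauccaucugu
miR-32-5p: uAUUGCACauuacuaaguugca
miR-92b-3p: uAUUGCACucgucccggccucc

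miR-20b-5p, from the X-linked cluster, was at 52.4, 69.9 and 58.2 CPM in diabetic and 47.6, 48.7 and 49.0 CPM in normal replicates, on 16 to 32 reads. miR-363-3p, from the same cluster, was at 180, 148 and 198 against 141, 142 and 115 CPM. For both, every diabetic library was above every normal one, the opposite order to miR-93-5p and miR-106b-5p. The log2 changes were 0.30 (SE 0.31, 95% interval -0.37 to 0.97) and 0.40 (SE 0.21, 95% interval -0.06 to 0.86). Limma put their adjusted p-values at 0.795 and 0.658, so neither passed, and by exact permutation p was 0.1 for each. The ratio of miR-17-5p to miR-20b-5p, which differ by U10C and C12U, averaged 35.7 ± 0.873 with diabetes and 50.1 ± 4.53 without (SD over 3 libraries each), and the groups did not overlap. This is the last of the 3 ratios singled out above and was not tested.

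miR-32-5p, a separate gene with the miR-25 seed, was at 1172, 917 and 1118 CPM in diabetic and 1170, 1196 and 1094 CPM in normal replicates. Diabetic replicate 2 was its only low library, and the log2 change was -0.12 (SE 0.13), with an adjusted p of 0.796 from limma and a p of 0.6 by exact permutation. Its level was above that of miR-92a-3p in every library. miR-92b-3p, which differs from miR-92a-3p by U10C and G21C over 21 bases, was at 58.9, 75.3 and 29.1 against 56.7, 32.5 and 30.2 CPM. The groups overlapped, with a log2 change of 0.40 (SE 0.42), an adjusted p of 0.795 from limma and a p of 0.5 by exact permutation.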

How the data were processed

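Testis small RNA libraries, 3 labelled diabetic and 3 labelled normal, were compared. The authors trimmed primers and adaptors off single-end reads, tallied small RNAs, assigned them to miRBase families and deposited CPM values, rounded to 1 decimal, under headings that say TPM. The submitters' processing notes name Bowtie 0.12.2, HISAT2 2.0, StringTie 1.3.0 and the mouse build mm8 without a role. The extraction text of the labels describes an mRNA library, and the miRNA description of the series and methods was followed. The miRBase release and the sharing of multi-mapped reads were not given in the sources used here.

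Reads were recovered from these CPM values as the smallest library total that made every value whole within 0.05 CPM, which held for 100% of values. The unit is normalized, so limma 3.58.1 (R 4.3.3; eBayes with a mean-variance trend) was run on log2(CPM + 1) of the 578 miRNAs that reached 1 CPM in 3 or more libraries, with Benjamini-Hochberg adjustment over all of them. It was tested on simulated data, once with no change and once with changes larger than every main estimate of a member. That test does not cover changes of the size seen in members. Single members were also compared by a two-sided exact permutation test (scipy 1.17.1). Summed levels, arm shares and ratios have no test.

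Members were chosen by name, and the members and lists were chosen with earlier results of these data known. All per-library values are given for members with at least 10 reads in every library or an unadjusted p under 0.05. The labels number the replicates without saying that each is a separate rat, so p-values measure only the spread between these samples. No replicate pair of a group agreed within sampling noise (chi-square per degree of freedom 6.47 to 20.0). Alternatives were a pseudocount of 0.1, eBayes with no trend, all entries unfiltered, a minimum of 10 reads per library, DESeq2 size factors, upper-quartile and TMM factors, a replicate block, edgeR 4.0.16 and DESeq2 1.42.0 on the recovered reads, and omission of each replicate in turn.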

Additional observations from a re-analysis of the deposited data

How the results depend on the processing

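The members with an unadjusted p under 0.05, 1 in the main setting, numbered 0 where eBayes had no trend and with upper-quartile factors, 1 in the other settings, and from 0 to 3 when 1 replicate was left out (0 without diabetic replicate 1 or 3 or normal replicate 1 or 3, and 3 without diabetic replicate 2, where miR-17-5p and miR-20a-3p were added). The single member was miR-20a-5p, whose p was under 0.05 in 10 of 16 alternatives, with log2 changes from -0.31 to -0.16 and adjusted p-values from 0.392 to 0.836, and 0 members were called after adjustment in any setting. Over all tested miRNAs, the 0 with an adjusted p under 0.05 rose to 8 where eBayes had no trend, to 2 by edgeR on recovered reads, and to 1 each for the unfiltered table, the minimum of 10 reads, upper-quartile factors, the replicate block and the DESeq2 Wald test. They numbered from 0 to 1 without single replicates. The 51 with an unadjusted p under 0.05 fell to 25 under the minimum of 10 reads per library, where 257 miRNAs were tested (40 to 56 without single replicates). The 27 past a log2 change of 1 with an unadjusted p under 0.05 became 1 with that filter and 11 with the DESeq2 Wald test (20 to 35 without single replicates), and 0 members were among them except miR-20a-3p without diabetic replicate 2, with a log2 change of -2.358. The minimum of 10 reads also lowered the number tested from 578 to 257, whereas the DESeq2 Wald test was run on 578. The cause of these moves was not tested.

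Estimates of members turned sign in 10 comparisons that left out a replicate, against 86 that kept direction and side of the threshold, and in 0 with another setting. These were miR-17-1-3p without normal replicate 1 (0.0149, range without single replicates -1.157 to 0.0149), miR-17-2-3p without normal replicate 3 (0.0107, range -0.6495 to 0.0107), miR-18a-3p and miR-18a-5p without diabetic replicate 1 (0.212 and 0.0713, ranges -1.127 to 0.2121 and -0.285 to 0.0713), and miR-25-3p without diabetic replicate 2, diabetic replicate 3 or normal replicate 3 (0.0011, 0.025 and 0.0008, range -0.0447 to 0.025). The others were miR-25-5p without diabetic replicate 3 or normal replicate 2 (-0.142 and -0.0999, range -0.1424 to 1.208) and miR-92a-1-5p without diabetic replicate 3 (0.027, range -0.5646 to 0.027). All had unadjusted p-values from 0.772 to 0.994.

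Deviations of same-numbered libraries from their group means correlated at 0.0065, -0.0688 and -0.0894 over 257 miRNAs. These values show little shared deviation. They cannot settle whether the libraries were paired, because other pairs of libraries were not compared. With the replicate block 1 member, miR-20a-5p, had an unadjusted p under 0.05, 44 miRNAs did in all, 1 had an adjusted p under 0.05 and 19 passed the log2 threshold. Differences of the summed levels ranged from -2230 to -953 CPM for the miR-17 cluster and from -470 to -119 CPM for miR-106b-25 when 1 replicate was left out, and were -1920, -1825 and -1889 CPM and -464, -381 and -440 CPM with DESeq2, upper-quartile and TMM factors. Depth limits the 7 minor arms, with at most 25 reads in any library.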
